A study of Mus musculus with 15 samples.

Results

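*Krt6a*, *Krt6b*, *Krt16*, *Krt17*, *Krt5*, *Krt14*, *Krt15*, *Krt1* and *Krt10* are 9 keratin genes of stratified squamous epithelium, taken by gene symbol from the 55487 genes listed in an RNA-Seq table of mouse conjunctival tissue. *Krt6a*, *Krt6b*, *Krt16* and *Krt17* are grouped here as activation keratins, *Krt5*, *Krt14* and *Krt15* as basal keratins, and *Krt1* and *Krt10* as suprabasal keratins. All 9 were followed over 3 groups of 5 libraries. Every mouse was WT, of a strain that the sample labels spell BALC/c and the study's methods give as BALB/c, female according to the methods, and 9 to 12 weeks old. All had been sensitized in the skin of 1 ear with MC903 (calcipotriol, 2.5 nmol per day for 7 days) together with OVA, so that the PBS group carries the sensitization too. The eyes were given a daily drop between day 18 and day 24, of PBS in the PBS group and of OVA in the other groups. OVA-challenged mice received an isotype control antibody (isotype group) or an antibody against IL-4Rα, the receptor chain shared by IL-4 and IL-13 (anti–IL-4Rα group), at 25 mg/kg between day 10 and day 21. The labels give the antibody of the PBS group as N/A. The comparison of the isotype with the PBS group asks what the OVA challenge changed, and that of the anti–IL-4Rα with the isotype group asks what blockade of the receptor changed. Whether the PBS mice also received an isotype antibody is not stated, and if they did not, the first comparison holds OVA and that antibody together.

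Keratins are the intermediate filament proteins of epithelial cells and assemble as pairs of an acidic type I chain (here *Krt10*, *Krt14*, *Krt15*, *Krt16* and *Krt17*) with a basic type II chain (here *Krt1*, *Krt5*, *Krt6a* and *Krt6b*). Dividing basal cells of stratified epithelia make *Krt5* with *Krt14*, and cells that leave the basal layer of keratinizing epithelium, such as the epidermis of the eyelid, switch to *Krt1* with *Krt10*. *Krt15* belongs to basal cells and to the bulge of the hair follicle. *Krt6a*, *Krt6b*, *Krt16* and *Krt17* are made in parts of the hair follicle and are known for their induction in keratinocytes after wounding and in inflamed skin.

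The type I genes lie close together on chromosome 11 and the type II genes on chromosome 15, all on the minus strand of GRCm38. To show how far reads can tell these genes apart, a stretch of 60 coding bases in exon 1 is given for each type I member at the same aligned place, 5′ to 3′ on the gene's strand. Capitals mark bases that differ from *Krt14*. The stretches lie at chr11:100207028-100207087 (*Krt14*), chr11:100248487-100248546 (*Krt16*), chr11:100260649-100260708 (*Krt17*), chr11:100135500-100135559 (*Krt15*) and chr11:99388863-99388922 (*Krt10*).
Krt14: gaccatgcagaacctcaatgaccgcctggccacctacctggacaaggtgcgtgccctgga
Krt16: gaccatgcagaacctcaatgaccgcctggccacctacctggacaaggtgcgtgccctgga
Krt17: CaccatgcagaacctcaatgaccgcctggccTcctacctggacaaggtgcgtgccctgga
Krt15: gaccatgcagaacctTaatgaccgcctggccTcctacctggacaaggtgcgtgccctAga
Krt10: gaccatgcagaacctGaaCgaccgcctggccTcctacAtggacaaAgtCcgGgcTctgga

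In this stretch *Krt16* had 0 differences from *Krt14*, whereas *Krt17*, *Krt15* and *Krt10* had 2, 3 and 8.

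Over the aligned coding sequence *Krt6a* and *Krt6b* were identical at 97.8% of bases, with a longest identical run of 236 bases, *Krt14* and *Krt16* at 84.5% (121 bases) and *Krt5* and *Krt6a* at 78.0% (140 bases). The stretch of 60 bases at which *Krt6a* and *Krt6b* differ most, with 10 differences in capitals, lies in exon 4 at chr15:101692484-101692543 (*Krt6a*) and chr15:101678303-101678362 (*Krt6b*).
Krt6a: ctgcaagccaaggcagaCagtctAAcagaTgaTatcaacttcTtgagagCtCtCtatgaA
Krt6b: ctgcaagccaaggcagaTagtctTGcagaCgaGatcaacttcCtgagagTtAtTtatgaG

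Of all windows of 90 bases, the read length given in the methods, in the main transcript of each gene, 37.1% for *Krt6a*, 33.6% for *Krt6b*, 26.2% for *Krt16*, 4.10% for *Krt14* and 3.56% for *Krt5* also occurred in another annotated transcript, against 0 for *Krt17*, *Krt15*, *Krt1* and *Krt10*. For *Krt6a* the other transcript was mostly that of *Krt6b* (31.7% of its windows). For *Krt16* it was mostly that of the pseudogene *Gm11597* (21.7%), which was counted at 0.438 CPM or less in every library, and otherwise that of *Krt14*. The methods speak of uniquely mapped read pairs, and whether and how pairs from shared stretches were counted is not stated. The split between *Krt6a* and *Krt6b* is therefore uncertain, as is a part of the level of *Krt16*. Genes annotated on the opposite strand overlap *Krt6a* (*Gm49428* and *Gm44342*), *Krt6b* (*Gm44383*), *Krt5* (*Gm44323*) and *Krt10* (*Gm11940*). The library kit marks the strand, but whether the counting used it is not stated.

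The deposited values are estimated counts, which summed to between 48622246 and 87745024 per library. Of 19006 genes tested all 9 members were among them, and the lowest count of a member in any library was 2160 (*Krt16* in the PBS group), so that the spread between libraries and not counting error set the precision. CPM below are counts relative to the TMM-normalized size of the library, with the SD over 5 libraries. Log2 fold changes, their standard errors (SE) and adjusted p-values (Benjamini-Hochberg, over all genes tested) come from the two-sided quasi-likelihood test of edgeR. A gene was called at an adjusted p under 0.05. The sample titles give each library a mouse number of its own.

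Some libraries stood apart in their tissue makeup. The summed level of 10 lacrimal acinar markers ran from 118 to 52433 CPM in the PBS group, from 118 to 33519 CPM in the isotype group and from 1275 to 156033 CPM in the anti–IL-4Rα group, where replicate 3 was lowest and the others were at 60051 CPM or more. The summed level of 8 hair follicle markers was 4284 CPM in isotype replicate 2 and 333 to 627 CPM in the other isotype libraries. The 8 general epithelial markers summed to 1486 to 1803, 1610.1 to 1748 and 1458 to 1659.5 CPM in the PBS, isotype and anti–IL-4Rα groups, and 0 of 8 were called in any comparison (unadjusted p under 0.05 in 0 for isotype against PBS and in 3 for each of the others, DESeq2 called 0, 2 and 0, voom 0, 1 and 0, and a linear model on FPKM 0 in each). The 9 skeletal muscle markers summed to 6305 to 11495 CPM in the PBS group, which did not overlap the 3868 to 5905 CPM of the isotype group, and to 4971 to 7366 CPM in the anti–IL-4Rα group. None of these lists held a marker that was at 0 in every library. In bulk tissue, fewer cells of a type and less RNA per cell cannot be told apart. The labels name no batch. The methods mention outlier samples without naming them, and all 15 libraries were kept here.

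The label conjunctiva was set against markers of keratinized epidermis and of the ocular surface. *Krt10*, *Krt5*, *Krt1*, *Krt14* and *Krt15* ranked 9th, 11th, 14th, 18th and 26th of all genes by mean CPM, and *Lor* and *Flg*, cornified envelope genes of epidermis, were at 2487 ± 405 and 2794 ± 552 CPM in the PBS group. The mucosal keratins *Krt4* and *Krt13*, which mark nonkeratinized stratified epithelium, were at 983 ± 210.4 and 958 ± 199 CPM, and *Muc5ac*, the gel-forming mucin of conjunctival goblet cells, at 1562 ± 298 CPM in the same group. Transcripts of keratinized epidermis, of mucosal epithelium and of goblet cells were thus all present in the libraries, and which of them an individual keratin transcript came from was not measured.

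Per kilobase of transcript, and scaled by the same TMM factors (FPKM below), the order in the PBS group was *Krt10* (3254), *Krt5* (2577), *Krt1* (2091), *Krt14* (1874), *Krt15* (1718), *Krt17* (882), *Krt6a* (580.4), *Krt6b* (412) and *Krt16* (40.6 mean FPKM). The ranges of neighbors overlapped from *Krt10* down to *Krt15* and between *Krt6a* and *Krt6b*, whereas *Krt17* lay below *Krt15* and above *Krt6a* in every PBS library, and *Krt16*, at 26.4 to 56.7 FPKM, lay below all others. In the isotype group *Krt14* led with a mean of 2747 FPKM, but its range overlapped those of *Krt10* (2669.6) and *Krt5* (2610.0 mean FPKM). *Krt17*, *Krt6a*, *Krt6b* and *Krt16* followed *Krt15* (1351) at means of 1143, 921, 681 and 367 FPKM, and only *Krt16* did not overlap its neighbor in that run. In the anti–IL-4Rα group the order of mean FPKM was that of the PBS group, with *Krt10* at 2530.1 and *Krt16* at 61.8 FPKM.

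After OVA challenge the 4 activation keratins rose, led by *Krt16* at 9.04 times its PBS level, and so did the basal keratin *Krt14*, at 1.47 times. The basal keratins *Krt5* and *Krt15* and the suprabasal *Krt1* and *Krt10* did not pass the test in this comparison. Among the members 5 of 9 were called higher and 0 of 9 lower, where 17.0% of all genes tested were called, 9.53% higher and 7.49% lower. Under anti–IL-4Rα these 5 keratins fell against the isotype group, *Krt16* by 5.94 times, and 0 of 9 were called higher, where 14.9% of all genes were called, 8.13% lower and 6.73% higher. For each of the 5 called keratins every isotype library lay above every PBS and every anti–IL-4Rα library. Over all genes, the isotype and PBS groups did not overlap in 12.3% (6.85% higher and 5.43% lower in the isotype group), and the anti–IL-4Rα and isotype groups in 7.31% (4.96% lower and 2.35% higher under anti–IL-4Rα). Against the PBS group 0 of 9 members were called in the anti–IL-4Rα group with edgeR (3 at an unadjusted p under 0.05, with DESeq2 calling 0, limma's voom 1 and a linear model on FPKM 0), where 3.72% of all genes were called, 2.28% higher and 1.44% lower. All 9 overlapped between these groups, where 6.10% of all genes did not (2.98% higher and 3.12% lower under anti–IL-4Rα). The comparisons share libraries, so their values are given side by side and not related to each other.

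**Figure D1:**
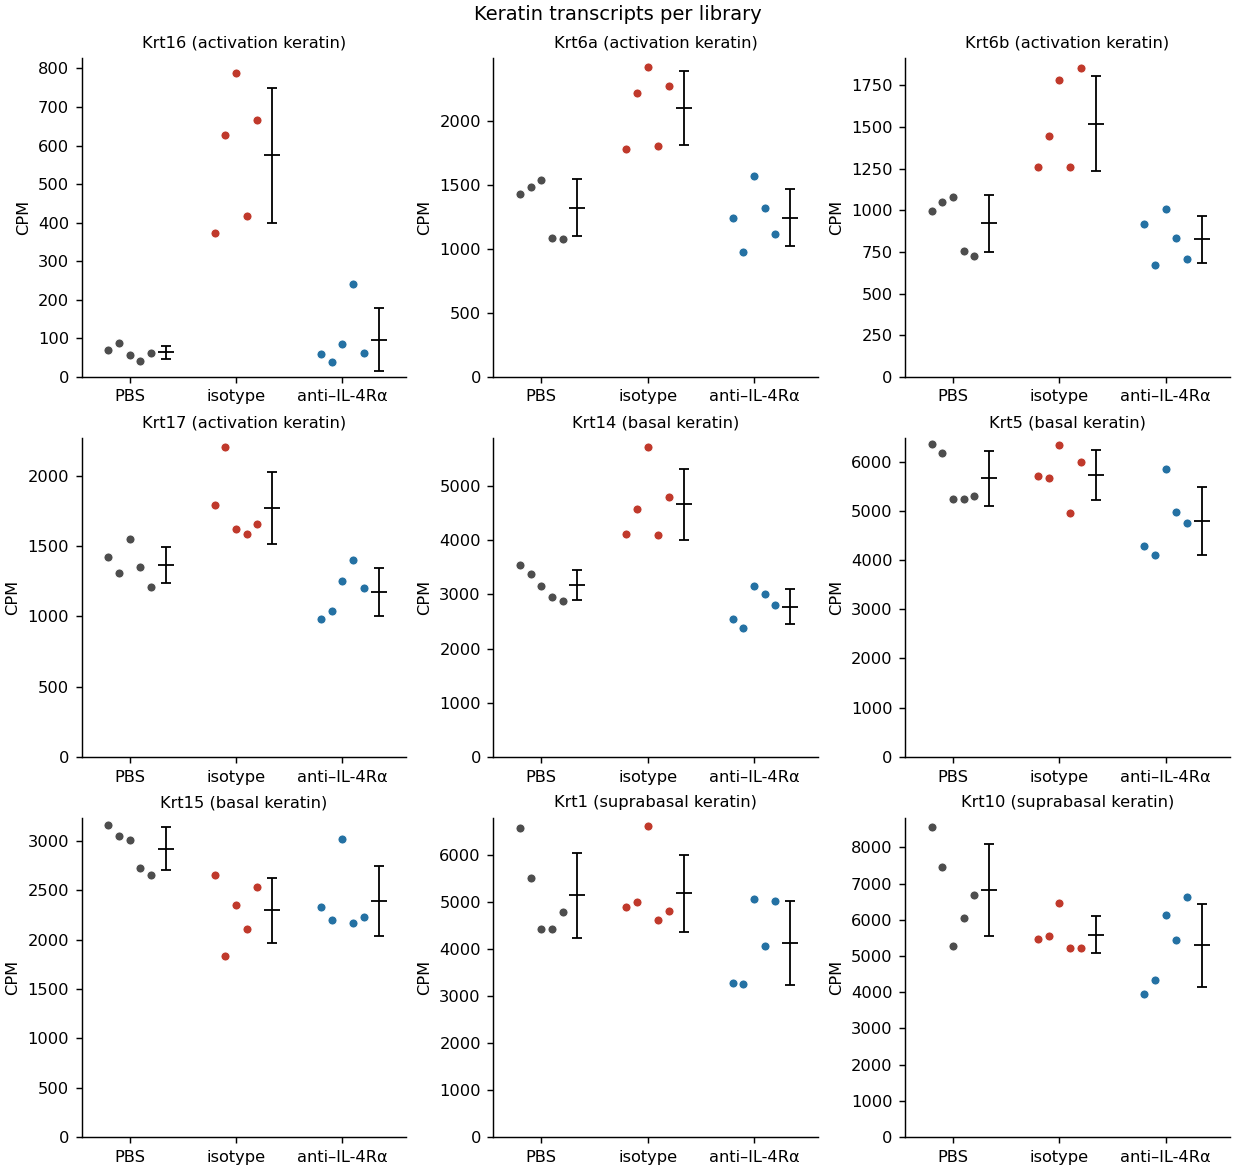
Level of each of the 9 keratins in CPM (linear axes that start at 0) in the PBS, isotype and anti–IL-4Rα libraries, with 1 point per library, replicates 1 to 5 from left to right, and the group mean with bars of 1 SD beside them. *Krt16* sits at 41.3 to 88.7 CPM with PBS, at 372 to 788 CPM with OVA and isotype and at 37.96 to 239.9 CPM with OVA and anti–IL-4Rα, where replicate 4 is the high point, while the groups of *Krt5*, *Krt1* and *Krt10* overlap.

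*Krt16* (ENSMUSG00000053797, chr11:100246091-100248902) encodes a type I keratin that pairs with Krt6 chains. It was at 69.1, 88.7, 56.5, 41.3 and 61.98 CPM in PBS replicates 1 to 5. In the isotype libraries it was at 372, 629, 788, 416 and 667 CPM, and in the anti–IL-4Rα libraries at 60.4, 37.96, 84.98, 239.9 and 60.6 CPM. Every isotype library was above all others, and anti–IL-4Rα replicate 4 stood above the rest of its group. From a mean of 63.5 ± 17.4 CPM *Krt16* rose to 574 ± 175 CPM, by 3.18 on the log2 scale (SE 0.45, 95% interval 2.22 to 4.14), the 64th highest of 19006 genes. It fell by 2.57 (SE 0.44) in the anti–IL-4Rα group to 96.8 ± 81.7 CPM, the 62nd lowest of these log2 fold changes. Without anti–IL-4Rα replicate 4 it fell by 3.24 on the log2 scale, and the log2 difference between the anti–IL-4Rα and PBS groups went from 0.61 (95% interval -0.28 to 1.49, edgeR adjusted p = 0.410) to -0.06.

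*Krt6a* (ENSMUSG00000058354, chr15:101689910-101694307) and *Krt6b* (ENSMUSG00000023041, chr15:101676023-101680287) encode near-identical type II partners of *Krt16* and *Krt17*. *Krt6a* was at 1429, 1484, 1536, 1086 and 1076 CPM in the PBS libraries and at 1779, 2213, 2417, 1806 and 2269 CPM in the isotype libraries. Under anti–IL-4Rα it was at 1244, 975, 1568, 1315 and 1119 CPM. Its isotype levels began above the highest PBS and anti–IL-4Rα libraries, with no overlap. It rose by a log2 fold change of 0.67 (SE 0.15, edgeR adjusted p = 0.00973) and fell by 0.75 (SE 0.15, adjusted p = 0.00867).

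*Krt6b* was at 999, 1052, 1079, 753 and 723 CPM in the PBS libraries. It was at 1260.4, 1449, 1783, 1259 and 1855 CPM in the isotype and at 916, 673, 1010.3, 831 and 705 CPM in the anti–IL-4Rα libraries. The isotype libraries again lay above all others. *Krt6b* rose by 0.72 on the log2 scale (SE 0.16, edgeR adjusted p = 0.00985) and fell by 0.88 (SE 0.16, adjusted p = 0.00630). Since reads are shared between *Krt6a* and *Krt6b*, which of both contributed more to these changes is uncertain. Against the PBS group the anti–IL-4Rα group differed by -0.09 (95% interval -0.40 to 0.22) for *Krt6a* and by -0.16 (-0.49 to 0.18) for *Krt6b*, both on the log2 scale and not called.

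*Krt17* (ENSMUSG00000035557, chr11:100256217-100261029), a type I keratin of hair follicles and of injured or inflamed epidermis, was the activation keratin with the smallest rise. It was at 1423, 1309, 1548, 1354 and 1206 CPM in the PBS libraries and at 1791, 2208, 1621, 1584 and 1657 CPM in the isotype libraries. Under anti–IL-4Rα it was at 982, 1038, 1253, 1400.4 and 1202 CPM. The groups did not overlap, though the lowest isotype library was at 1584 CPM and the highest PBS library at 1548 CPM. *Krt17* rose by 0.37 on the log2 scale (SE 0.12, edgeR adjusted p = 0.0404). The call was kept in 7 of 15 fits with 1 library left out. It was lost without any one of PBS replicates 1, 2, 4 and 5 and isotype replicates 1, 2, 3 and 5, and the highest of these adjusted p, 0.0988, came without isotype replicate 2, which was the library rich in hair follicle markers. Under anti–IL-4Rα *Krt17* fell by 0.59 (SE 0.12, edgeR adjusted p = 0.00884), a call kept in 15 of 15 such fits. Its log2 difference between the anti–IL-4Rα and PBS groups was -0.22 (95% interval -0.47 to 0.03, edgeR adjusted p = 0.272).

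*Krt14* (ENSMUSG00000045545, chr11:100203162-100207548), the type I chain of the basal pair, was at 3544, 3369, 3161, 2951 and 2887 CPM in the PBS libraries. It was at 4123, 4582, 5718, 4103 and 4794 CPM in the isotype and at 2546, 2371, 3148, 3010.4 and 2797 CPM in the anti–IL-4Rα libraries. All isotype libraries lay above all others. *Krt14* rose by 0.55 on the log2 scale (SE 0.11, edgeR adjusted p = 0.00694) and fell by 0.75 (SE 0.11, adjusted p = 0.00243). Its mean of 2775 ± 320.2 CPM in the anti–IL-4Rα group was -0.20 from the PBS group on the log2 scale (95% interval -0.44 to 0.04, edgeR adjusted p = 0.306). *Krt16*, *Krt6a*, *Krt6b* and *Krt14* stayed called in all 15 fits with 1 library left out in both comparisons.

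*Krt5* (ENSMUSG00000061527, chr15:101707070-101712898), the type II partner of *Krt14*, was at 6365, 6173, 5232, 5232 and 5308 CPM in the PBS libraries and at 5716, 5671, 6331, 4952 and 5999.8 CPM in the isotype libraries. Under anti–IL-4Rα it was at 4278, 4110.2, 5853, 4977 and 4753 CPM, and all 3 groups overlapped. The log2 difference between the isotype and PBS groups was 0.02 with a 95% interval of -0.22 to 0.26 (edgeR adjusted p = 0.931), whose upper bound lies below the rise of *Krt14*. Between the anti–IL-4Rα and isotype groups it was -0.26 (95% interval -0.50 to -0.02, edgeR adjusted p = 0.125), and without anti–IL-4Rα replicate 3 the adjusted p was 0.0356. *Krt5* was also called lower in this comparison with voom (adjusted p = 0.0368) and without the 3 libraries of lowest lacrimal signal, 1 per group (edgeR adjusted p = 0.0470). Its log2 difference between the anti–IL-4Rα and PBS groups was -0.24 (95% interval -0.48 to -0.00).

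*Krt15* (ENSMUSG00000054146, chr11:100131758-100135928), a type I keratin of basal cells, was at 3164, 3046, 3007, 2725 and 2659 CPM in the PBS libraries. It was at 2657, 1838, 2346, 2107 and 2532 CPM in the isotype and at 2335, 2201, 3021, 2167 and 2228 CPM in the anti–IL-4Rα libraries. Every PBS library lay above every isotype library by a small margin (exact permutation test over libraries, two-sided p = 0.00794, which no split of these libraries can undercut), and so did 5.43% of all genes. The log2 difference was -0.35 (SE 0.12, 95% interval -0.60 to -0.10) and missed the threshold (edgeR adjusted p = 0.0560). It passed, as lower in the isotype group, without isotype replicate 1 (0.0303) and without anti–IL-4Rα replicate 3 (0.0301), both edgeR adjusted p, and in 4 of 13 other settings. *Krt15* differed by 0.06 on the log2 scale between the anti–IL-4Rα and isotype groups (95% interval -0.19 to 0.31) and by -0.29 between the anti–IL-4Rα and PBS groups (-0.54 to -0.04, edgeR adjusted p = 0.158). Of the last groups anti–IL-4Rα replicate 3, the library with the least lacrimal signal in its group, was the only anti–IL-4Rα library within the PBS range, and without it the adjusted p was 0.0334.

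*Krt1* (ENSMUSG00000046834, chr15:101845426-101850794), the type II chain of the suprabasal pair, was at 6553, 5493, 4409.5, 4427 and 4783 CPM in the PBS libraries. It was at 4881, 4998, 6603, 4601 and 4792 CPM in the isotype and at 3263, 3242, 5062, 4047 and 5004 CPM in the anti–IL-4Rα libraries, with overlap between all groups. The log2 difference was 0.01 between the isotype and PBS groups (95% interval -0.34 to 0.36) and -0.33 between the anti–IL-4Rα and isotype groups (-0.68 to 0.02). Neither passed the test (edgeR adjusted p = 0.972 and 0.177).

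*Krt10* (ENSMUSG00000019761, chr11:99385254-99389364), its type I partner, was at 8576, 7467, 5276, 6063 and 6682 CPM in the PBS libraries. It was at 5462, 5553, 6475, 5229.8 and 5231 CPM in the isotype and at 3943, 4338, 6136, 5440.0 and 6633 CPM in the anti–IL-4Rα libraries, where the 3 groups overlapped as well. Its log2 differences were -0.29 between the isotype and PBS groups (95% interval -0.63 to 0.05, edgeR adjusted p = 0.230) and -0.08 between the anti–IL-4Rα and isotype groups (-0.42 to 0.26, adjusted p = 0.760). Against the PBS group the anti–IL-4Rα group differed by -0.32 for *Krt1* and -0.36 for *Krt10* on the log2 scale (edgeR adjusted p = 0.262 and 0.187). Isotype replicate 3 was the highest of its group for both genes.

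**Figure D2:**
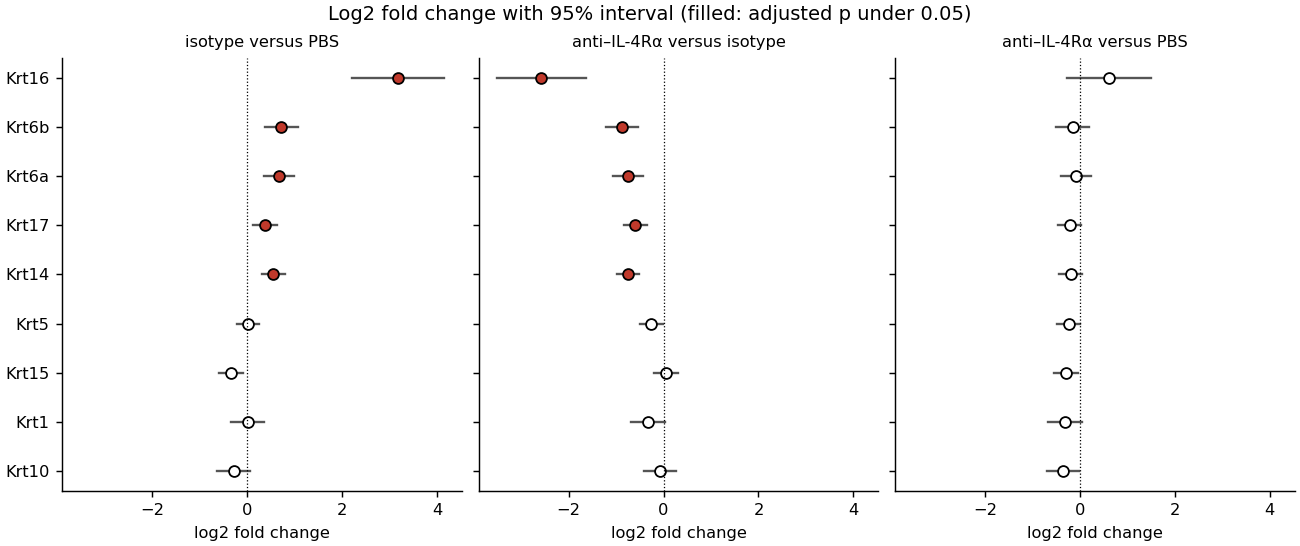
Log2 fold change of each keratin in the 3 comparisons, with points for the edgeR estimate, bars for its 95% interval and filled points for calls at an adjusted p under 0.05. *Krt16* lies at 3.18 and -2.57, the other called members between 0.37 and 0.72 in the first panel (isotype against PBS) and between -0.88 and -0.59 in the middle panel (anti–IL-4Rα against isotype), and the last panel (anti–IL-4Rα against PBS) holds no filled point.

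The summed general epithelial markers had their lowest library in the anti–IL-4Rα group (1458 CPM in replicate 2). These sums overlapped between the anti–IL-4Rα and isotype groups only through anti–IL-4Rα replicate 3 (1659.5 CPM). A score of the 8 markers, the mean of their standardized log2 CPM, did not overlap between these groups. It ran from -0.84 to -0.24 with anti–IL-4Rα and from -0.22 to 0.70 with isotype. Epithelial content and antibody can therefore not be told apart with this score as a covariate. With it in the model, edgeR's adjusted p for anti–IL-4Rα against isotype was 0.0360 for *Krt16* and 0.0270 for *Krt14*. It was 0.0847 for *Krt6a*, 0.0642 for *Krt6b* and 0.0874 for *Krt17*, so that 2 of 9 members were called. The log2 fold changes with this covariate were -2.44 for *Krt16*, -0.63 for *Krt14*, -0.62 for *Krt6a*, -0.77 for *Krt6b* and -0.47 for *Krt17*, beside -2.57, -0.75, -0.75, -0.88 and -0.59 without it, and 219 of all genes were called in place of 2826. All 5 stayed called in this comparison with the lacrimal acinar score as a covariate and without the 3 libraries of lowest lacrimal signal, 1 per group. For isotype against PBS the epithelial score left all 5 called. The part of epithelial content in these results was not tested further.

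The ratio of 2 genes within a library does not depend on how that library was scaled, and the proportions of the members are given here as FPKM ratios, as a description. *Krt16* was 2.11%, 2.86%, 1.94%, 1.52% and 2.33% of *Krt14* in PBS replicates 1 to 5. It was 9.80%, 14.9%, 14.96%, 11.01% and 15.1% in the isotype and 2.58%, 1.74%, 2.93%, 8.65% and 2.35% in the anti–IL-4Rα libraries. The isotype libraries were all above the rest, and anti–IL-4Rα replicate 4 came closest to them. How pairs from windows shared by *Krt16* and *Krt14* were counted is not stated, so a part of this ratio is uncertain. *Krt6a* was 19.5% to 28.3% of *Krt5* in the PBS group, 30.02% to 37.6% in the isotype group and 22.7% to 28.1% in the anti–IL-4Rα group.

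Within the basal keratins the proportions changed as well. *Krt14* was 70.4% to 78.2% of its partner *Krt5* in the PBS group, 93.3% to 117% in the isotype group and 69.6% to 78.3% in the anti–IL-4Rα group. *Krt15* was 89.2%, 90.3%, 95.02%, 92.2% and 92% of *Krt14* in the PBS libraries. In the isotype libraries it was 64.4%, 40.1%, 40.98%, 51.3% and 52.8%, and in the anti–IL-4Rα libraries 91.6%, 92.7%, 95.9%, 71.9% and 79.6%. Both ratios hold *Krt14*, which was called higher, and set the isotype libraries apart from all others. Relative to *Krt5*, *Krt15* was 63.8% to 74.3% in the PBS group and 41.9% to 60.1% in the isotype group. It was 56.3% to 70.5% in the anti–IL-4Rα group, which overlapped the isotype group. In the suprabasal pair *Krt10* was 140.3% to 164% of *Krt1* in the PBS group, 115% to 133% in the isotype group and 142% to 158% in the anti–IL-4Rα group, with no overlap between the isotype and the other libraries. By contrast *Krt17* was 42.5% to 53.6%, 31.04% to 52.8% and 42.2% to 50.9% of *Krt14* and *Krt1* was 75.4% to 92.1%, 71.5% to 93.3% and 68.3% to 94.2% of *Krt5* in the PBS, isotype and anti–IL-4Rα groups, where all groups overlapped. *Krt6b* was 68.5% to 72.2%, 66.7% to 83.3% and 64.2% to 75.02% of *Krt6a*.

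Of the summed FPKM of the 9 members, the activation keratins made up 14.3% ± 1.86 in the PBS group, 21.3% ± 1.72 in the isotype group and 15.6% ± 1.52 in the anti–IL-4Rα group (SD, n = 5 each). The basal keratins made up 46.1% ± 1.63, 45.97% ± 1.51 and 46.9% ± 2.71, and the suprabasal keratins 39.6% ± 3.31, 32.7% ± 1.69 and 37.5% ± 3.78. The larger activation share in the isotype group thus stood beside a smaller suprabasal share. These shares are parts of a whole, so a rise in any of them lowers the rest. The suprabasal sum itself was 4316 to 6765 FPKM in the PBS group and 4372 to 5782 FPKM in the isotype group, within the PBS range. It was 3212 to 5206 FPKM in the anti–IL-4Rα group. Type I members summed to 134% to 143% of type II members in the PBS group, 126% to 136% in the isotype group and 127% to 139% in the anti–IL-4Rα group. All members together held 2.48% to 3.46% of a library's counts in the PBS group, 2.68% to 3.64% in the isotype group and 1.70% to 2.95% in the anti–IL-4Rα group.

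**Figure D3:**
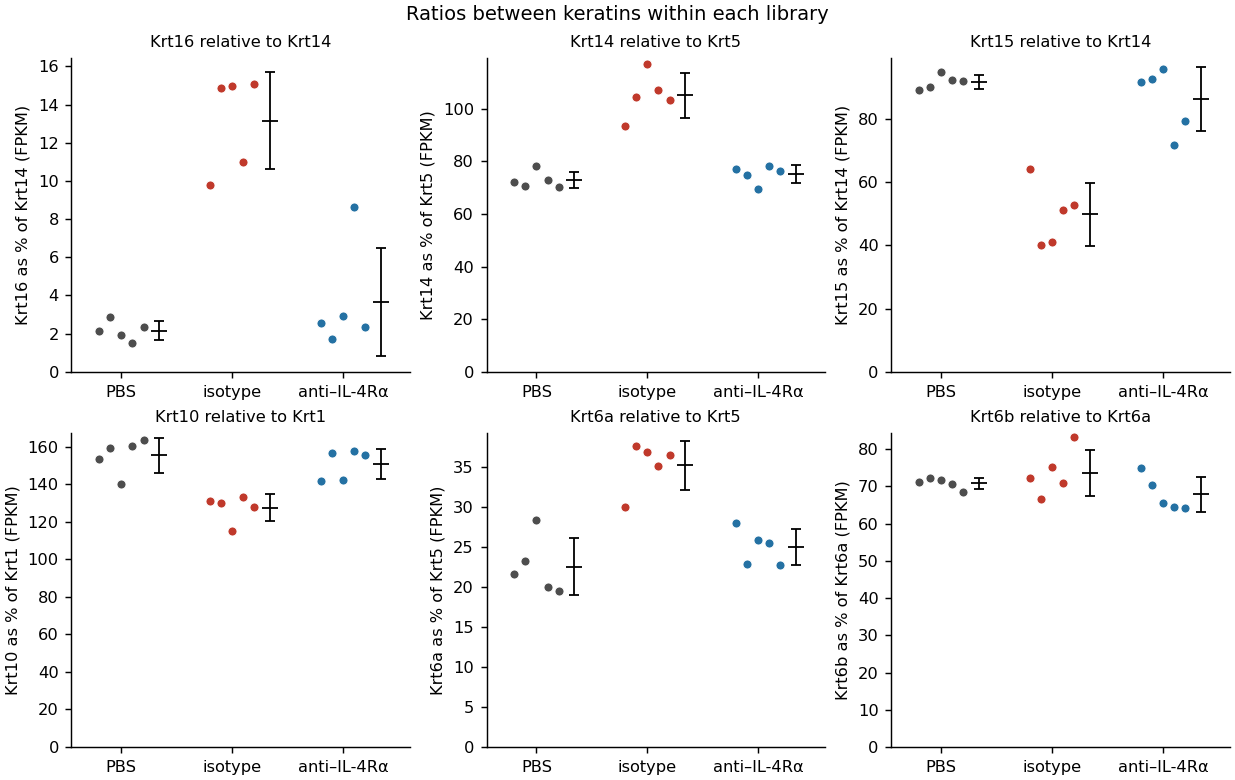
FPKM ratios of keratin pairs in percent in each of the 15 libraries, on linear axes that start at 0, with 1 point per library (replicates 1 to 5 from left to right) and the group mean with bars of 1 SD. *Krt14* reaches 93.3% to 117% of *Krt5* in the isotype group against 70.4% to 78.2% in the PBS group. *Krt15* is at 40.1% to 64.4% of *Krt14* in the isotype group, where *Krt14* itself was called higher.

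Within the groups, pairs of keratins were followed from library to library. After the group means were removed from log2 CPM, 8 pairs were compared over the 15 libraries by permutation within groups, with p adjusted over the 8 pairs. *Krt1* and *Krt10* had a Pearson r = 0.95, permutation p = 2.00e-05, adjusted p = 0.000160, and *Krt6a* and *Krt6b* a Pearson r = 0.94, permutation p = 4.00e-05, adjusted p = 0.000160. *Krt5* and *Krt14* had a Pearson r = 0.86, permutation p = 0.000240, adjusted p = 0.000640, although only *Krt14* was called between groups. The same pairs had Spearman rho = 0.97, permutation p = 1.00e-05, adjusted p = 8.00e-05 (the raw p being the smallest that 100000 permutations give), Spearman rho = 0.91, permutation p = 0.000130, adjusted p = 0.000520, and Spearman rho = 0.88, permutation p = 0.000220, adjusted p = 0.000587. Without the 2 libraries farthest from the median of the first gene, r was 0.95, 0.92 and 0.84. *Krt6a* and *Krt6b* are both type II chains, and reads shared between them bear on their r. Libraries of a group also differ in tissue makeup, and whether these r go beyond it was not tested.

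*Krt16* followed *Krt14* (Pearson r = 0.71, permutation p = 0.00345, adjusted p = 0.00690) and *Krt6a* (Pearson r = 0.62, permutation p = 0.0248, adjusted p = 0.0331), with r of 0.77 and 0.57 without the 2 farthest libraries. Reads from the 4.10% of *Krt14* windows that also occur in *Krt16* may bear on the first of these r. For these pairs Spearman rho = 0.78, permutation p = 0.00242, adjusted p = 0.00484, and Spearman rho = 0.68, permutation p = 0.0113, adjusted p = 0.0151. *Krt14* and *Krt10* had a Pearson r = 0.66, permutation p = 0.00780, adjusted p = 0.0125 (0.60 without the 2 farthest, Spearman rho = 0.71, permutation p = 0.00565, adjusted p = 0.00904). The relation was not significant for *Krt16* with *Krt17* (Pearson r = 0.46, permutation p = 0.152, adjusted p = 0.174, Spearman rho = 0.36, permutation p = 0.226, adjusted p = 0.226), whose r was 0.09 without the 2 farthest libraries, nor for *Krt14* with *Krt15* (Pearson r = 0.38, permutation p = 0.248, adjusted p = 0.248, Spearman rho = 0.42, permutation p = 0.168, adjusted p = 0.192, and 0.37 without the 2 farthest). No batch is given by the labels, so no value within batches could be computed.

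**Figure D4:**
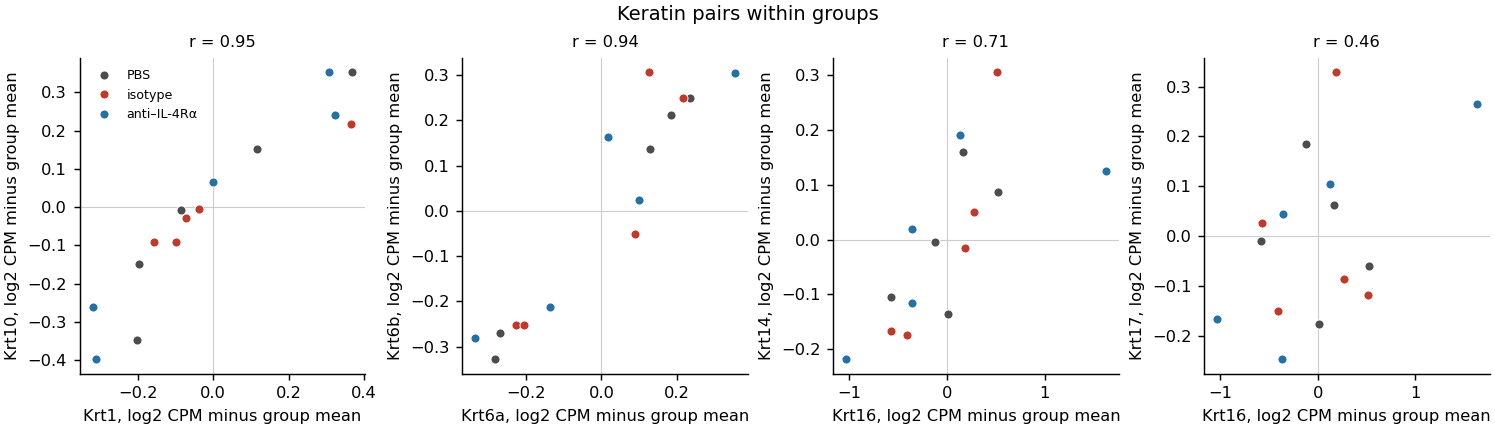
Log2 CPM of both genes of a pair in the 15 libraries after the mean of each group was removed, with 1 point per library colored by group. Points of *Krt1* with *Krt10* (r = 0.95) and *Krt6a* with *Krt6b* (r = 0.94) lie close to a line, those of *Krt16* with *Krt14* (r = 0.71) and *Krt17* (r = 0.46) scatter more, and anti–IL-4Rα replicate 4 is the point farthest to the right in both.

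Other keratins were set beside the members, with 9.53% of all genes called higher for isotype against PBS and 8.13% lower for anti–IL-4Rα against isotype. Of 9 further epidermal keratins 1 was called higher in the isotype than in the PBS group and 1 lower in the anti–IL-4Rα than in the isotype group, both times *Krt76*, a suprabasal keratin of oral epithelium, at low levels (0.706 ± 0.224, 1.99 ± 1.01 and 0.491 ± 0.182 CPM in the PBS, isotype and anti–IL-4Rα groups). Its log2 fold changes were 1.49 (SE 0.35, edgeR adjusted p = 0.0129) and -1.99 (SE 0.36, adjusted p = 0.00612). *Krt79*, a keratin of hair follicle openings and the most abundant of these 9, was at 1734 ± 314, 1764 ± 247 and 1489.5 ± 51.6 CPM and was not called. With 1 of 9 called in each comparison, these keratins were near the shares over all genes. The median log2 fold change of the 9 was -0.20 in the first of these comparisons and -0.15 in the second, beside -0.01 and 0.01 over all genes tested.

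Of the mucosal keratins *Krt4* and *Krt13*, *Krt19* and the corneal keratin *Krt12*, 0 of 4 were called between the isotype and PBS groups with edgeR (1 at an unadjusted p under 0.05, and 0 with DESeq2, voom and the linear model). *Krt4*, *Krt13* and *Krt19* were at 852 ± 135, 946 ± 146 and 383 ± 98.4 CPM in the isotype group and at 738 ± 181, 760.4 ± 162 and 382 ± 66.2 CPM in the anti–IL-4Rα group. *Krt12* was higher under anti–IL-4Rα than with isotype control (log2 fold change 3.55, SE 0.96, edgeR adjusted p = 0.0293), at 1.04 ± 0.263 and 12.3 ± 19.6 CPM, a call that was lost without any one of isotype replicates 2, 3 and 5 and anti–IL-4Rα replicate 1. Among the simple epithelial keratins, which glands and ducts also make, *Krt18* rose by 1.16 (SE 0.32, edgeR adjusted p = 0.0313) from 63.4 ± 25.3 CPM in the isotype to 141 ± 46.8 CPM in the anti–IL-4Rα group, where the lacrimal markers were high. It was not called without any one of isotype replicates 2, 3 and 5 and anti–IL-4Rα replicates 1, 2, 4 and 5. With the lacrimal or the epithelial score as a covariate, 0 of the 3 simple epithelial keratins were called in this comparison. The part of gland content in the rise of *Krt18* was not tested. *Krt7* and *Krt8* were at 281 ± 38.98 and 175 ± 52.4 CPM in the isotype group and 259.6 ± 55.1 and 234 ± 30.6 CPM in the anti–IL-4Rα group and were not called.

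Hair follicle keratins followed 1 library. All 15 that were tested had a higher fitted level in the isotype than in the PBS group, but 0 of 15 were called with edgeR (8 at an unadjusted p under 0.05, DESeq2 2, voom and the linear model 0). Their summed level was 9933 CPM in isotype replicate 2 and 705 to 1431 CPM in the rest of its group, and their median log2 fold change of 1.55 became -0.01 without it. *Krt71*, an inner root sheath keratin and the most abundant of them, was at 305 ± 92.3 CPM in the PBS and 861 ± 1164 CPM in the isotype group. Of the members, *Krt16*, *Krt6a*, *Krt6b* and *Krt14* were called in both comparisons without this library, and *Krt17* for anti–IL-4Rα against isotype.

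Genes of the keratinocyte activation list, which holds alarm cytokines, EGF family ligands and stress-induced envelope genes, were called in part. Of 17 tested 6 were called higher and 0 lower in the isotype group than in the PBS group (median 0.79), and 7 were called lower and 0 higher in the anti–IL-4Rα than in the isotype group (median -0.78). The fitted level was higher in the isotype than in the PBS group for 14 of the 17 and lower for 3. *Sprr1b*, a cornified envelope precursor, rose from 15.2 ± 4.71 to 177 ± 75.1 CPM, by 3.54 on the log2 scale (SE 0.35, edgeR adjusted p = 0.000177), and fell to 16.9 ± 6.37 CPM. *Il1b*, an inflammatory cytokine, rose by 2.02 (SE 0.39) and fell by 1.81 (SE 0.39). *Epgn*, an EGF receptor ligand, rose by 1.95 (SE 0.42) and fell by 1.99 (SE 0.42). *Klk6*, a kallikrein protease and the most abundant of the list, went from 72.6 ± 13.6 to 206 ± 50.5 and then to 60.8 ± 2.99 CPM (log2 fold changes 1.5 and -1.76, SE 0.15 and 0.15). Against the PBS group, 0 of 17 were called in the anti–IL-4Rα group with edgeR (1 at an unadjusted p under 0.05, and 0 with DESeq2, voom and the linear model).

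Among 13 known regulators of keratin genes 3 were called higher in the isotype group. *Fosl1*, a subunit of the AP-1 transcription factor, rose from 1.61 ± 0.697 to 7.38 ± 3.74 CPM, by 2.20 on the log2 scale (SE 0.58, edgeR adjusted p = 0.0210), and was at 2.89 ± 2.77 CPM in the anti–IL-4Rα group, where the difference from the isotype group did not pass the test (adjusted p = 0.110). *Ovol1*, a zinc finger factor of epidermal differentiation, rose by 0.38 (SE 0.12) and *Stat3*, a mediator of cytokine signals, by 0.20 (SE 0.05). With 1 library left out *Stat3* was called in 15 of 15 fits, *Fosl1* in 14 (not without isotype replicate 3) and *Ovol1* in 7. Of the 13, 7 were called lower in the anti–IL-4Rα than in the isotype group, *Ovol1* among them (-0.61, SE 0.12), and 5 without isotype replicate 2. Without isotype replicate 3, only 1 regulator was called higher in the isotype than in the PBS group. *Klf4*, a factor of barrier formation and the most abundant of these regulators, was at 479 ± 45.1, 500.2 ± 82.4 and 395 ± 61.4 CPM and was not called.

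Proliferation genes rose in the isotype group. Of 10 tested 9 were called higher than in the PBS group and 10 were called lower in the anti–IL-4Rα than in the isotype group, with medians of 0.49 and -0.74 on the log2 scale. *Mki67*, a marker of cycling cells, rose by 0.54 (SE 0.14), *Mcm5*, a replication helicase subunit, by 0.64 (SE 0.14) and *Rrm2*, which makes deoxyribonucleotides, by 0.62 (SE 0.16; called in 11 of 15 fits with 1 library left out). Their summed level was 707 CPM in isotype replicate 2, and 7 of 10 were called higher without it. The count fell to 5 without PBS replicate 2 and to 4 without PBS replicate 5 or isotype replicate 3.

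Genes that anchor keratin filaments are held in a desmosome and a hemidesmosome list. Of 14 desmosome genes 1 was called higher in the isotype than in the PBS group, *Dsg1b*, a desmosomal cadherin of upper layers (0.38, SE 0.08). Under anti–IL-4Rα, 6 were called lower than in the isotype group (3 in fits without any one of isotype replicates 2 and 5 and anti–IL-4Rα replicates 1, 2 and 4, and 1 without isotype replicate 3), and *Dsg1b* fell by 0.51 (SE 0.08). *Dsp*, which links keratins to the desmosome and was the most abundant, was at 1579 ± 165, 1579 ± 76.97 and 1355 ± 144 CPM and was not called. Of 9 hemidesmosome genes, which tie basal cells to the basement membrane, 2 were called higher and 2 lower in the isotype group. *Itga6*, an integrin chain, rose by 0.20 (SE 0.06), while *Dst* fell by 0.23 (SE 0.07). These counts rested on single libraries, with 1 to 3 called higher and 0 to 2 lower when 1 was left out (1 and 0 without isotype replicate 2 or 3). *Itga6* was called in 8 of 15 such fits and *Dst* in 5. *Col17a1* was at 820.1 ± 98.9, 746 ± 49.2 and 721 ± 98.1 CPM and was not called. Under anti–IL-4Rα, 3 of the 9 hemidesmosome genes were called lower and 0 higher than with isotype, and 7 had a lower fitted level. With 1 library left out, 1 to 4 of them were called lower in this comparison.

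Of 9 cornified envelope genes, which are made in the upper layers that express *Krt1* and *Krt10*, 0 were called between the isotype and PBS groups with edgeR (5 at an unadjusted p under 0.05, DESeq2 1, voom and the linear model 0), with a median of 0.14 on the log2 scale. Under anti–IL-4Rα, 5 were called lower than with isotype (median -0.40), and 2 without isotype replicate 2, 3 without anti–IL-4Rα replicate 2 or 4, and 1 without isotype replicate 3 or anti–IL-4Rα replicate 1. *Flg*, the most abundant of them, which encodes filaggrin, was at 2794 ± 552, 3123 ± 703 and 2367 ± 543 CPM and was not called. With the epithelial score as a covariate, 1 desmosome, 0 hemidesmosome and 0 cornified envelope genes were called lower for anti–IL-4Rα against isotype. In that fit 2 keratinocyte activation genes, 0 regulators and 3 proliferation genes were called lower. With the lacrimal score these counts were 2, 1, 0, 3, 5 and 7. Epithelial content and antibody cannot be told apart in these lists.

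**Figure D5:**
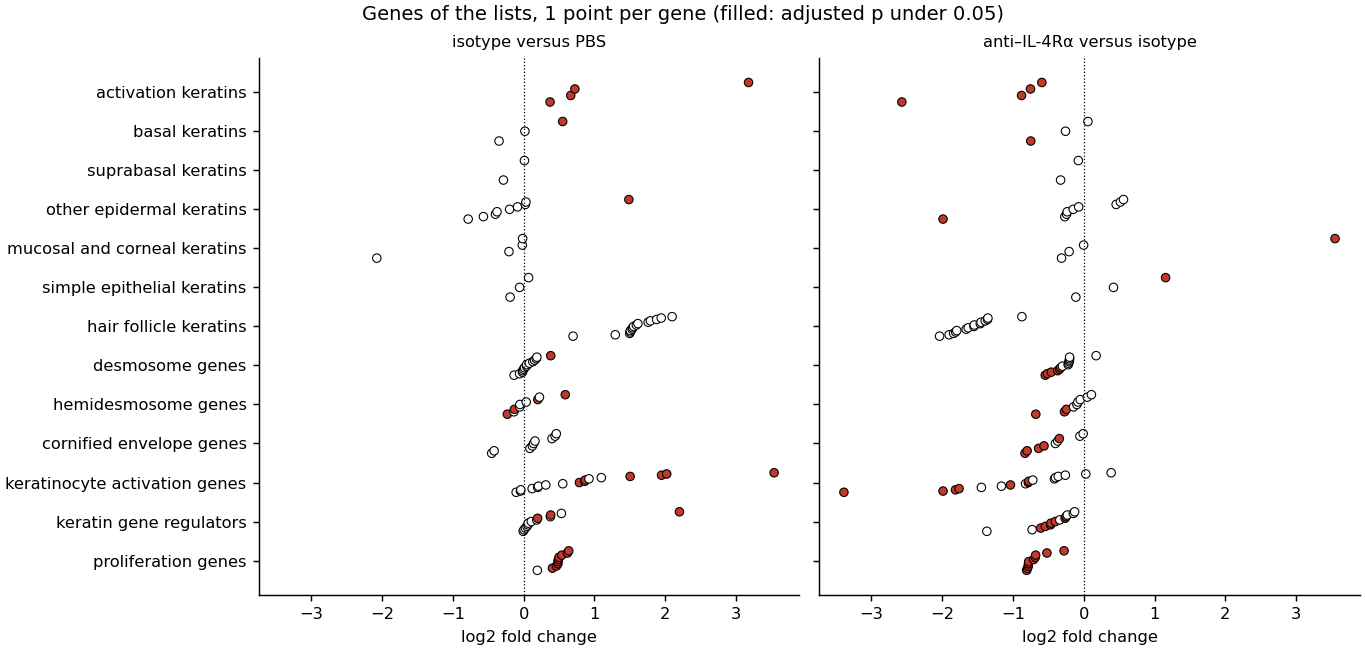
Log2 fold change of each gene of the keratin, junction, activation, regulator, proliferation and envelope lists in 2 panels (isotype against PBS, anti–IL-4Rα against isotype), with 1 point per gene, filled where called and set apart vertically only to be seen. The medians of the activation keratins (0.69 and -0.82), keratinocyte activation genes (0.79 and -0.78) and proliferation genes (0.49 and -0.74) lie above 0 in the first comparison and below 0 in the second.

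The genes most like each keratin layer in pattern were looked for among 12523 genes with a mean of at least 5 CPM, by the Pearson correlation of log2 CPM over the 15 libraries, as a description that holds the group differences and shares library makeup. Those most like *Krt16* were *Sprr1b* (0.97), *Sprr2g* (0.95), *Urah* (0.95), *Sprr2h* (0.94) and *Lce3c* (0.93). With the group means removed, r was 0.84, 0.81, 0.81, 0.85 and 0.46 in this order, lowest for *Lce3c*. *Sprr1b*, *Sprr2g* and *Sprr2h* encode small proline-rich proteins and *Lce3c* a late cornified envelope protein, and *Sprr2g* went from 1.26 to 13.1 and 1.20 mean CPM in the PBS, isotype and anti–IL-4Rα groups. *Sprr2g* and *Lce3c* reached a mean of 5 CPM only through the isotype group, so that the filter has a part in their place. Those most like *Krt14* were *Klk9* (0.98), *Ptges* (0.97), *2310046K23Rik* (0.97), *Rassf1* (0.97) and *Rps6ka4* (0.97). *Klk9*, a kallikrein, went from 36.1 to 87.8 and 30.8 mean CPM, and *Ptges*, a prostaglandin E synthase, from 53.2 to 80.5 and 45.9. Those most like *Krt10* were *Il20rb* (0.97), *Lce1l* (0.97), *Sbsn* (0.97), *Cd109* (0.96) and *2310050C09Rik* (0.96), and of these 5 none was called in the 3 comparisons with edgeR, *Sbsn*, a gene of the upper epidermis, being at 1633, 1390.2 and 1272 mean CPM. With the group means removed, their r with *Krt10* was 0.97, 0.96, 0.96, 0.96 and 0.96, beside 0.95 for *Krt1* with *Krt10*. For the 5 genes most like *Krt14* it was 0.91, 0.88, 0.86, 0.87 and 0.91, beside 0.86 for *Krt5* with *Krt14*.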

How the data were processed

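RNA-Seq of conjunctival tissue gave 15 libraries, 5 in each of 3 groups taken from the sample labels. According to the methods, the authors mapped read pairs of 90 bases uniquely to mouse B38 in Omicsoft Array Studio with an Ensembl release 100 gene model. The deposited values are estimated counts (expected counts per gene) that the authors made in this way and did not scale for depth. Of these, 6222 to 8005 genes per library were not whole, and all were rounded. Counting method, software version and use of strand are not given in the sources used here. Library totals of 48622246 to 87745024 counts put counting error below the spread between libraries. The 30 pairs of libraries of 1 group differed by more than counting error (chi-square per degree of freedom 19.5 to 1074).

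The 19006 genes that reached 10 counts in 5 or more libraries were fitted in edgeR 4.0.16 (R 4.3.3) with TMM factors in 1 model of the 3 groups. Log2 CPM used a prior count of 2, and FPKM here are normalized CPM per kilobase of the main coding transcript. Single genes were also compared over the 252 splits of 5 against 5 libraries (exact permutation test), and pairs by 100000 permutations (scipy 1.17.1). Positions and sequences came from the GRCm38 genome with GENCODE M21 (55141 gene identifiers matched, 346 not), coding sequences aligned with mafft 7.526. Tables and plots used pandas 2.3.3, numpy 2.4.6 and matplotlib 3.10.9 in Python 3.11.15. The fits were tested on simulated counts.

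Alternatives were upper quartile factors, DESeq2 1.42.0 (test and size factors), limma 3.58.1 voom with quality weights, an unmoderated linear model on log2(FPKM + 1), other filters, 2 groups only, library sizes without keratins, the replicate number as a block, lacrimal and epithelial scores as covariates, and leaving out 1 library or each of 25 pairs of an isotype with an anti–IL-4Rα library. Leaving out the library of lowest lacrimal signal in each group was added after seeing the data. The members and the 22 gene lists (173 of 174 genes matched) were chosen with earlier results of these data known. Named were all members, every gene of a list of 5 or fewer, and of longer lists the 3 with the largest fold change among those called for isotype against PBS and the most abundant, plus the 5 genes most alike to *Krt16*, *Krt14* and *Krt10*. *Lor*, *Areg*, *Hbegf*, *Ereg*, *Tgfa*, *Krt80*, *Aqp5* and the genes that share or overlap a member's sequence were named outside this rule after their values were seen. A gene that the rule names and a further sequence are not reported here. Files of the authors' own comparisons were not used.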

Additional observations from a re-analysis of the deposited data

Results flagged for a closer look

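In 4 of 27 sets of 5 libraries (9 keratins in 3 groups) 1 library lay far from the rest, by a gap of over 0.71 of the range of its group. Chance gives this in about 1 in 20 sets where values are normally distributed. The sets here are in CPM and not independent, since *Krt1* and *Krt10* follow each other and flag the same library. The 4 flags can therefore not be set against that rate. *Krt16* in anti–IL-4Rα replicate 4 was at 239.9 CPM, where the other 4 libraries were at 37.96 to 84.98 CPM. *Krt15* in anti–IL-4Rα replicate 3 was at 3021 CPM, where the other 4 libraries were at 2167 to 2335 CPM; that library also had the lowest lacrimal acinar signal of its group. *Krt1* in isotype replicate 3 was at 6603 CPM, where the other 4 libraries were at 4601 to 4998 CPM. *Krt10* in isotype replicate 3 was at 6475 CPM, where the other 4 libraries were at 5229.8 to 5553 CPM.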

How the results depend on the processing

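No member's fold change turned its called direction under any setting. Over 13 alternative settings, *Krt16*, *Krt6a*, *Krt6b* and *Krt14* kept their call for isotype against PBS in 13 of 13. *Krt17* lost it with upper quartile factors (0.0543), the linear model (0.0619), no filter (0.0624), the replicate block (0.0899) and without the 3 libraries of lowest lacrimal signal (0.119, adjusted p each). *Krt15* was called lower with upper quartile factors (0.0483), DESeq2 (0.0163), voom (0.0247) and the epithelial score (0.0491). For anti–IL-4Rα against isotype, 2 of 9 members were called with the epithelial score in place of 5, and 6 of 9 with voom and without the 3 libraries, where *Krt5* was called lower as well. For anti–IL-4Rα against PBS, 1 of 9, *Krt15*, was called with voom (0.0178) and 1 without the 3 libraries (0.0300). Leaving out 1 library, 4 to 6, 5 to 6 and 0 to 1 members were called in the 3 comparisons, and in 25 fits that dropped a pair of libraries (1 with isotype, 1 with the receptor antibody, never PBS) 4 to 6, 2 to 6 and 0 to 1. The 1 member called for anti–IL-4Rα against PBS without anti–IL-4Rα replicate 3 was *Krt15*.

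Counts over all genes moved more; the cause was not tested. For isotype against PBS 3235 genes were called, 2115 with the replicate block and 2055 without the 3 libraries. For anti–IL-4Rα against isotype 2826 were called, 1749 with no filter, 677 with the 2 groups only, 1859 with the block, 580 with the lacrimal and 219 with the epithelial score. For anti–IL-4Rα against PBS 707 were called, 1966 with DESeq2, 2318 with voom, 294 with the linear model, 327 with no filter, 312 with the block, 90 with the lacrimal and 10 with the epithelial score and 1727 without the 3 libraries. With 1 library left out the counts ran from 1863 to 3936, 882 to 4206 and 82 to 2029, and with such a pair from 1599 to 4077, 223 to 5139 and 39 to 2563. The lowest of the first ranges came without isotype replicate 3 in the first 2 comparisons and without PBS replicate 1 or 2 in the third, and the highest without isotype replicate 1 and, in the other comparisons, without anti–IL-4Rα replicate 3. With upper quartile factors 44.5% of calls for isotype against PBS were higher in place of 56.0%, and 51.3% for anti–IL-4Rα against PBS in place of 61.4%. The linear model gave 42.5% and 27.2% for these comparisons. For anti–IL-4Rα against isotype 45.3% of calls were higher, 24.8% with the 2 groups only, 24.7% with the lacrimal and 8.68% with the epithelial score, which gave 20% for anti–IL-4Rα against PBS.

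Nothing in the labels says that libraries of the same replicate number are paired, and the correlations that follow cannot settle it. Over 15 pairs of the same number the correlation of deviations ran from -0.38 to 0.45 (median 0.0013), and 4 of 15 were above 0.1. With the number as a block *Krt17* was not called for isotype against PBS, and no other member's call changed. Depth did not limit the members, of which none had fewer than 2160 counts in a library.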

Other observations

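Markers of cell types other than the stratified epithelium also differed between the groups. Of 6 leukocyte markers tested 2 were called higher in the isotype than in the PBS group. *Ptprc*, the pan-leukocyte CD45, rose from 21.1 ± 2.22 to 43.8 ± 12.2 CPM (log2 fold change 1.05, SE 0.21) and was at 33.04 ± 9.82 CPM in the anti–IL-4Rα group, and *Siglecf*, an eosinophil marker, rose from 1.01 ± 0.159 to 2.87 ± 1.28 CPM (1.51, SE 0.38) and was at 2.61 ± 1.49 CPM. For anti–IL-4Rα against isotype 0 of 6 were called with edgeR (0 at an unadjusted p under 0.05, DESeq2 and the linear model 0, voom 1). *Itgam* was at 90.5 ± 19.1, 93.7 ± 14 and 88.8 ± 22.6 CPM. Of 5 goblet cell markers *Spdef*, their transcription factor, was called higher in the isotype (0.87, SE 0.16) and in the anti–IL-4Rα group (1.14, SE 0.16) than in the PBS group, at 8.11 ± 1.05, 14.9 ± 3.20 and 17.9 ± 3.10 CPM. *Muc5ac*, *Agr2*, *Tff1* and *Foxa3* were at 1745, 68.5, 30.9 and 2.23 mean CPM in the isotype group and were not called.

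Of 5 ocular surface markers *Aldh3a1*, a corneal crystallin enzyme, fell from 970.4 ± 107 to 603 ± 148 CPM in the isotype group (-0.69, SE 0.16), and *Pax6*, a transcription factor of eye development, was higher in the anti–IL-4Rα than in the isotype group by 0.43 (SE 0.13), a call kept in 6 of 15 fits with 1 library left out. Of 5 fibroblast markers *Col3a1* rose (0.77, SE 0.19) and *Dcn* fell (-0.42, SE 0.09) in the isotype group, and *Dcn* rose by 0.38 (SE 0.09) in the anti–IL-4Rα group. *Col1a1*, *Pdgfra* and *Lum* were at 1795, 53.2 and 209 mean CPM in the isotype group and were not called. Of 9 skeletal muscle markers 7 were called lower in the isotype than in the PBS group, *Pvalb*, *Actn3*, *Ckm* and *Myh4* by log2 fold changes of -0.98, -0.89, -0.82 and -0.62 (SE 0.18, 0.23, 0.18 and 0.14); *Actn3* was not called without PBS replicate 2 or 5. Of 8 hair follicle markers *Lef1* was called higher (1.65, SE 0.52), in 5 of 15 such fits and not without isotype replicate 2, and *Tchh* was at 992 ± 1383 CPM in the isotype group. Of 10 lacrimal acinar markers *Aqp5*, a water channel, was called higher in the anti–IL-4Rα than in the isotype (0.48, SE 0.15) and PBS groups (0.61, SE 0.15), in 3 and 6 of 15 such fits, and *Mucl2*, the most abundant, was at 5787 ± 10248, 6697 ± 6993 and 48610.1 ± 32518 CPM. Of 7 sebaceous and meibomian markers 0 were called in any comparison with edgeR (0, 2 and 0 at an unadjusted p under 0.05, and 0 with DESeq2, voom and the linear model), with *Far2* at 1093 ± 356, 889 ± 402 and 1178 ± 107 CPM. Of the keratinocyte activation list, the EGF family ligands *Areg* and *Hbegf* rose in the isotype group by 0.87 and 0.79 (SE 0.20 and 0.24) and fell by 1.04 and 0.78 (SE 0.20 and 0.24) in the anti–IL-4Rα group, where the calls of *Hbegf* were kept in 9 and 6 of 15 such fits and those of *Areg* in all. With *Sprr1b*, *Il1b*, *Epgn* and *Klk6* they make up the 6 genes called higher in the isotype group. The other genes of that list, the EGF family ligands *Ereg* and *Tgfa* among them, were not called in that comparison. *Krt80*, a keratin of differentiated epithelium, was the 1 further epidermal keratin called lower in the anti–IL-4Rα than in the PBS group (-0.32, SE 0.08), in 3 of 15 such fits.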
